A study of Homo sapiens with 2 samples.

Results

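The genes described are 6 human CXC chemokines that attract neutrophils, CXCL1, CXCL2, CXCL3, CXCL5, CXCL6 and CXCL8, a chosen list taken by name from the array's annotation. They had 11 probe sets, and they are 6 of 19775 genes with a probe set of their own. Total RNA was measured on 1 Affymetrix array from MDA-MB 231 cells stably transfected with S100A7 in the plasmid pIRES2-EGFP. The control was 1 array from cells of the same line that carried pIRES2-EGFP alone, so both lines carried the plasmid with its EGFP reporter. MDA-MB 231 is an invasive breast cancer cell line of human origin that lacks the estrogen receptor, and S100A7 (psoriasin) is a small calcium-binding protein abundant in inflamed skin. The series asks which genes S100A7 regulates. Whether each line was a single clone or a pool is not given in the sources used here, and the confluence at harvest is given for the vector cells only. With 1 array in each group no difference below could be tested or set against the spread between cultures.

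Chemokines are small secreted proteins that direct the migration of leukocytes. These 6 carry the tripeptide glutamate-leucine-arginine, written ELR, just before the first of their conserved cysteines, and act on neutrophils through the receptor CXCR2, with CXCL6 and CXCL8 also acting on CXCR1. Their genes lie together on chromosome 4. They are classical targets of the transcription factor NF-kB downstream of interleukin-1 and TNF, and tumour cells that secrete them can draw neutrophils and stimulate the growth of blood vessels.

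The stretch of DNA just before each gene's start is shown because it holds the element through which NF-kB is known to act on these genes. Each sequence is the 140 bases before the start annotated by RefSeq (GRCh38.p14), read on the gene's own strand, and capitals mark every match to GGAATTTCC or to the AP-1 motif TGANTCA.
CXCL1, chr4:73869253-73869392, plus strand: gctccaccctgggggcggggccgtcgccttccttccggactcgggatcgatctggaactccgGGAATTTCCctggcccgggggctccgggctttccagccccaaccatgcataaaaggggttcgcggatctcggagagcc
CXCL2, chr4:74099196-74099335, minus strand: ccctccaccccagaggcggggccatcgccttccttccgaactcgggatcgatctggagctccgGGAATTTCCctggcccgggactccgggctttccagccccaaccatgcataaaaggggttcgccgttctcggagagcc
CXCL3, chr4:74038690-74038829, minus strand: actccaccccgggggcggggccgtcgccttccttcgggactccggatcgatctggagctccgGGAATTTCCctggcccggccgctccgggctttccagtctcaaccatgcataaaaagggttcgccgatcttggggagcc
CXCL5, chr4:73998678-73998817, minus strand: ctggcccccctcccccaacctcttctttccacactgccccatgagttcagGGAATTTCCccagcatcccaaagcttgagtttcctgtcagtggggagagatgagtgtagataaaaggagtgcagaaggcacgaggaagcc
CXCL6, chr4:73836538-73836677, plus strand: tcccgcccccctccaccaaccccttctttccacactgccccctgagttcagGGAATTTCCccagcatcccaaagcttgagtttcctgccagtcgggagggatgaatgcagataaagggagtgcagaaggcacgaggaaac
CXCL8, chr4:73740429-73740568, plus strand: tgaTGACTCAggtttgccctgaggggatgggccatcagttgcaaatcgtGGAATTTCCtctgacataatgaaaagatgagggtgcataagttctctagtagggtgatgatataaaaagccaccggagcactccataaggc

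The longest run of bases shared by all 6 windows was the 9-base NF-kB core GGAATTTCC, found from these windows themselves. Of the 35114 promoter windows of all genes, 0.413% held it on either strand within the 250 bases before the start. In CXCL8 the core ran from 91 to 83 bases before the start, and in CXCL1 from 78 to 70. CXCL2, CXCL3, CXCL5 and CXCL6 held it between 90 and 69 bases before the start, always on the gene's strand. The longer GGGAATTTCC, likewise taken from the members' own windows, was present in 5 of the 6, CXCL8 being without it, and in 0.142% of all windows. Since both patterns were read from these genes, these shares describe how common the letters are and are no test of enrichment. A wider NF-kB pattern, GGG and CC with 5 bases of any kind between them, was found in all 6 on one strand or the other, but also in 54.4% of all windows. In all members except CXCL8 it had matches on both strands that overlapped the core, and in CXCL8 the match lay apart from it, 117 to 108 bases before the start.

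Other motifs were not shared. The AP-1 motif TGANTCA, which reads the same on both strands, was present in CXCL8 alone among the members, 137 to 131 bases before the start, and in 6.57% of all windows. The C/EBP pattern TTGCNNAA had a match in CXCL2 alone, on the opposite strand 188 to 181 bases before the start, and in 9.05% of all windows. A match describes letters only and says nothing of binding in these cells. Over the 250 bases, CXCL1, CXCL2 and CXCL3 were 71.4% to 81.4% identical to each other, and CXCL5 and CXCL6 were 85.3% identical. CXCL8 was 44.7% to 47.3% identical to the others, a level that gapped alignment of unrelated DNA can also approach.

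**Figure D1:**
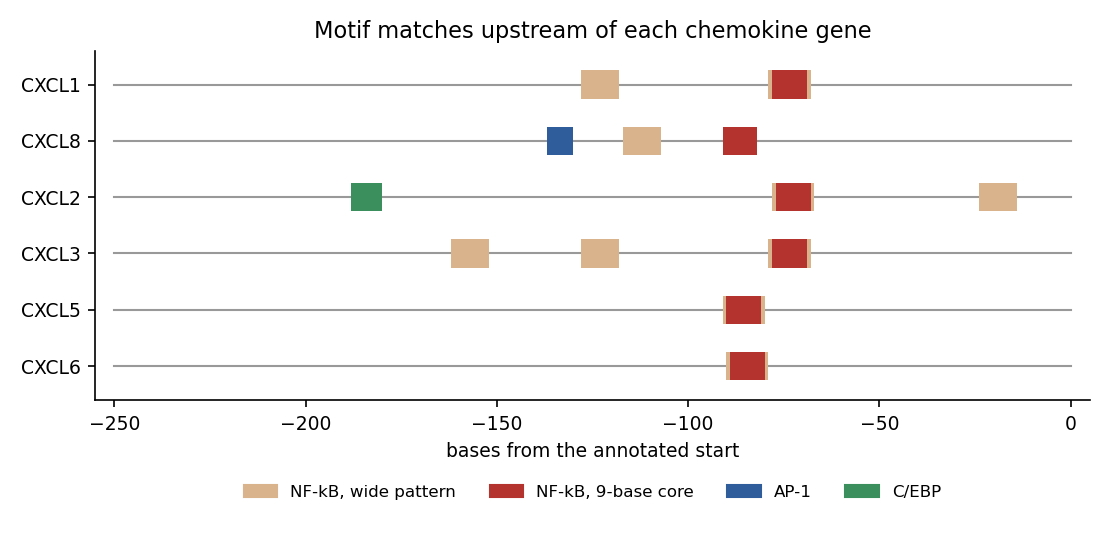
Matches to each motif in the 250 bases before the annotated start of the 6 chemokine genes, with the horizontal axis in bases from that start and boxes drawn to the length of the match. The 9-base NF-kB core lies in all 6 genes between 91 and 69 bases before the start, while AP-1 and C/EBP each have a match in 1 gene.

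The label of the transfected cells was checked first. The S100A7 probe set read 13232 on the S100A7 array and 11.99 on the vector array. The vector reading lay under the floor, the 50th percentile of an array's probe sets, which was 69.0 on the S100A7 array and 71.0 on the vector array and stood in for a detection call. Probe sets at or above the floor on either array are called measured. The line's own markers were present, with VIM at 35575 in S100A7 cells and 38087 in vector cells, and CD44, CAV1 and AXL also measured. ESR1, PGR and CDH1 were below the floor on both arrays, while ERBB2, GATA3 and EPCAM, listed as low in this line, were above it. The 3' over 5' ratios of the ACTB and GAPDH controls ran from 0.801 to 1.07 on the S100A7 array and from 0.718 to 1.09 on the vector array. The 18 hybridisation controls had a median log2 ratio of -0.01 (SD 0.10 over probe sets).

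CXCL1 and CXCL8 were several-fold higher in the S100A7 cells, CXCL2 and CXCL3 were higher by less than 2-fold, and CXCL5 and CXCL6 were not measurable in either line. CXCL1, first described as a melanoma growth-stimulating activity, read 3825 in S100A7 cells and 991 in vector cells. That is 3.86-fold higher, a log2 ratio of 1.95. CXCL8, or interleukin-8, the best known neutrophil attractant, read 5207 in S100A7 cells and 1392 in vector cells on its brighter probe set, 3.74-fold higher. Its other probe set read 1448 in S100A7 cells and 463 in vector cells, 3.12-fold higher. The CXCL8 probe sets, 202859_x_at and 211506_s_at, had log2 ratios of 1.90 and 1.64, which differ by 0.26.

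CXCL2 and CXCL3, close relatives of CXCL1 that arose by duplication of the same ancestral gene, differed less. CXCL2 read 1046 in S100A7 cells and 562 in vector cells on its measured probe set, 1.86-fold higher and just short of the 2-fold line. CXCL3 read 609 in S100A7 cells and 427 in vector cells, 1.43-fold higher. Their log2 ratios were 0.90 and 0.51.

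From high to low, the log2 ratios ran CXCL1, CXCL8, CXCL2 and CXCL3. The step between CXCL1 and CXCL8 was 0.05, smaller than the 0.26 between the probe sets of CXCL8 itself, so these neighbours cannot be ordered. From CXCL8 to CXCL2 the step was 1.01 on the brighter CXCL8 probe set, and smaller on the other, whose log2 ratio was 1.64. From CXCL2 to CXCL3 it was 0.38, close to the standard deviation of 0.36 between log2 ratios of probe sets of the same gene, pooled over 6465 genes. That deviation is of a single probe set about its gene's mean, and a difference between probe sets varies more. It covers disagreement between probe sets within this pair of arrays and not the spread between cultures.

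CXCL5, also known as epithelial neutrophil-activating peptide, and CXCL6, or granulocyte chemotactic protein, gave no usable ratio. The CXCL6 probe set read 21.3 in S100A7 cells and 20.6 in vector cells. The 3 CXCL5 probe sets read 2.13 to 7.71 in S100A7 cells and 1.56 to 15.4 in vector cells, and they went in both directions. With 2 further probe sets of CXCL2, at 9.00 and 28.9 in S100A7 cells and 5.27 and 26.7 in vector cells, 6 of the 11 probe sets lay below the floor on both arrays. Among these 6, 5 were nominally higher in S100A7 cells and 1 lower, differences that have no meaning at this level.

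**Figure D2:**
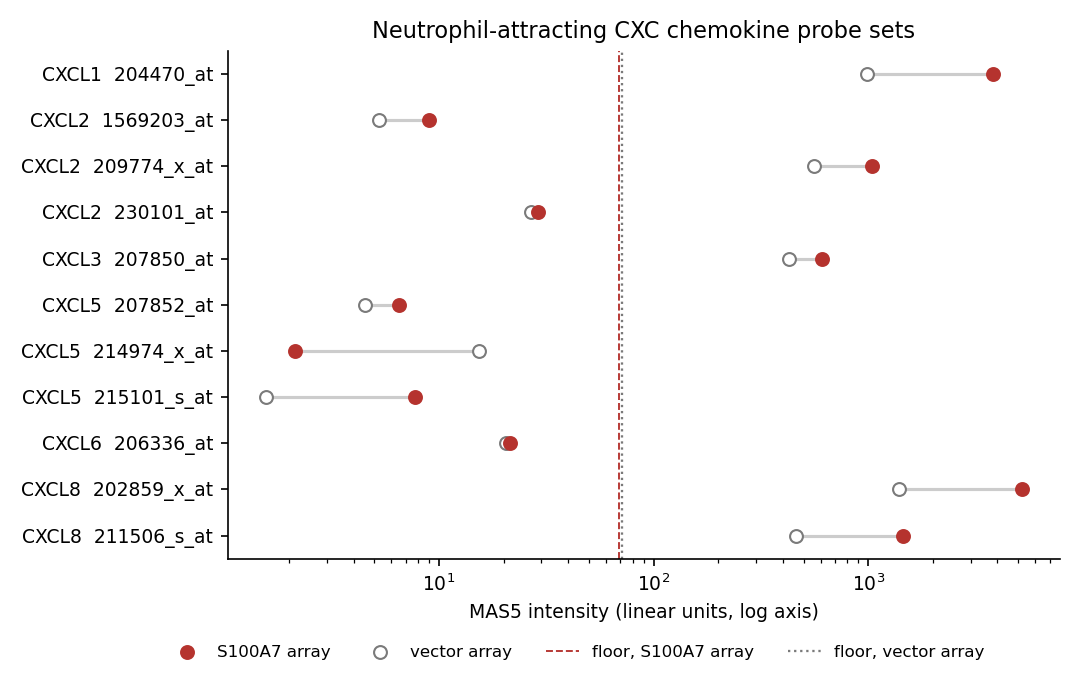
Intensity of each of the 11 chemokine probe sets (log axis, linear MAS5 units) on the S100A7 array (filled) and the vector array (open), 1 array each, with the floor of each array as a vertical line. The 5 probe sets to the right of the floor lines are all higher on the S100A7 array, and the 6 to the left are below the floor on both.

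Of the 5 measured probe sets, 3 were at least 2-fold higher in S100A7 cells, against 2.2% of all 24438 measured probe sets with 1 gene. By gene, 2 of the 4 measured members were at least 2-fold higher and 0 lower, where 1.8% of all 12688 measured genes were higher by that much and 2.25% were lower. Their median log2 ratio was 1.40, beside -0.04 over all measured genes. All 4 had a log2 ratio above 0, as had 45.8% of all genes. CXCL1 ranked 22nd and CXCL8 28th from the top among the 12688 genes, CXCL2 ranked 337th and CXCL3 1313th. CXCL1 and CXCL8 were among the 4230 genes with the brightest mean intensity, of which 23, or 0.544%, were at least 2-fold higher.

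A limit of these readings lies in the probe sets. All 3 measured probe sets of CXCL2 and CXCL8 have names ending in _x_at or _s_at, which mark probes that can match more than 1 transcript, and without them CXCL1 and CXCL3 alone were measured. CXCL1, CXCL2 and CXCL3 are closely similar copies, and how far their probes bind each other's transcripts was not tested.

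**Figure D3:**
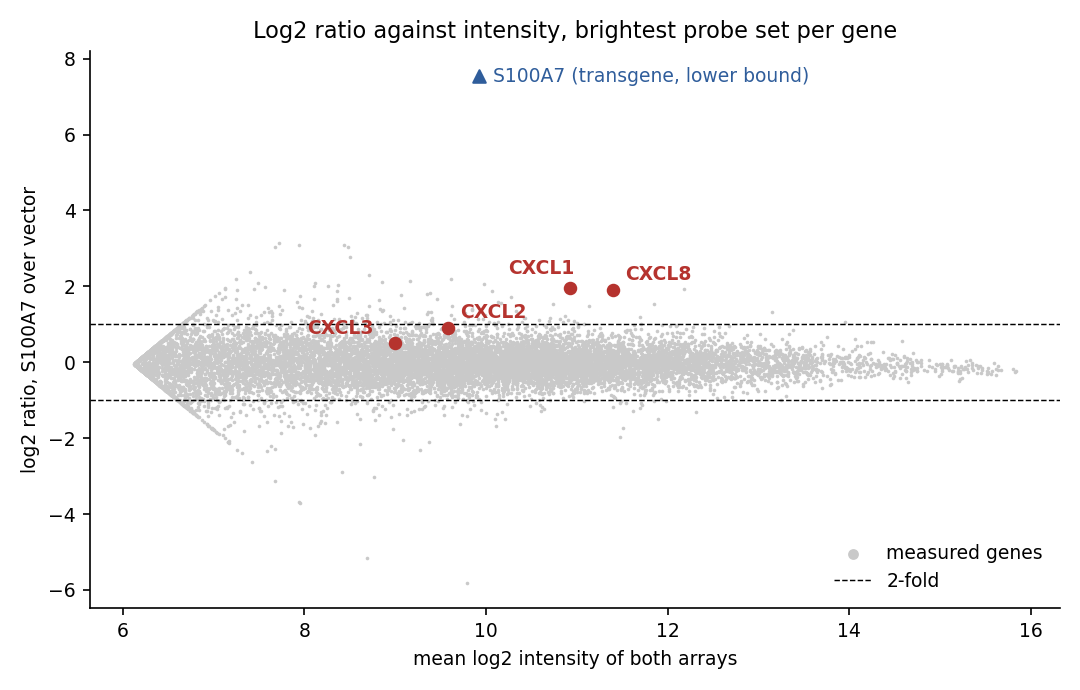
Log2 ratio of S100A7 over vector cells against the mean log2 intensity of both arrays for 12688 measured genes (grey, brightest probe set of each), with the measured chemokines in red, the transgene S100A7 as a blue triangle and 2-fold as dashed lines. CXCL1 at 1.95 and CXCL8 at 1.90 stand above the 2-fold line, while CXCL2 at 0.90 and CXCL3 at 0.51 lie within the 2-fold lines.

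The other genes in and beside the cluster were within 2-fold or not measurable. In the order of the RefSeq annotation (GRCh38.p14) the cluster runs CXCL8, CXCL6, PF4V1, CXCL1, PF4, PPBP, CXCL5, CXCL3 and CXCL2. Of the 3 genes inside it that are not members, PPBP, which encodes a neutrophil attractant of platelets, and PF4V1 were below the floor on both arrays. PF4, platelet factor 4, read 55.9 in S100A7 cells, below the floor, and 80.4 in vector cells. Among the 5 protein-coding genes on either side, 3 were measured and 0 of them was 2-fold apart. Over all measured genes 1.8% were at least 2-fold higher and 2.25% lower, so a count of 0 among so few genes is unremarkable. ANKRD17 had a log2 ratio of -0.20, and EREG, the EGF receptor ligand epiregulin, -0.27. MTHFD2L, a mitochondrial folate enzyme gene adjacent to CXCL2, had -0.91, with its 3 measured probe sets ranging from -0.91 to 0.39. ALB, AFP, AFM, RASSF6 and BTC were below the floor on both arrays, and EPGN and AREG had no probe set assigned to them alone. Over 423 measured protein-coding genes of chromosome 4 the median log2 ratio was -0.14, with 10 at least 2-fold higher and 12 lower.

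**Figure D4:**
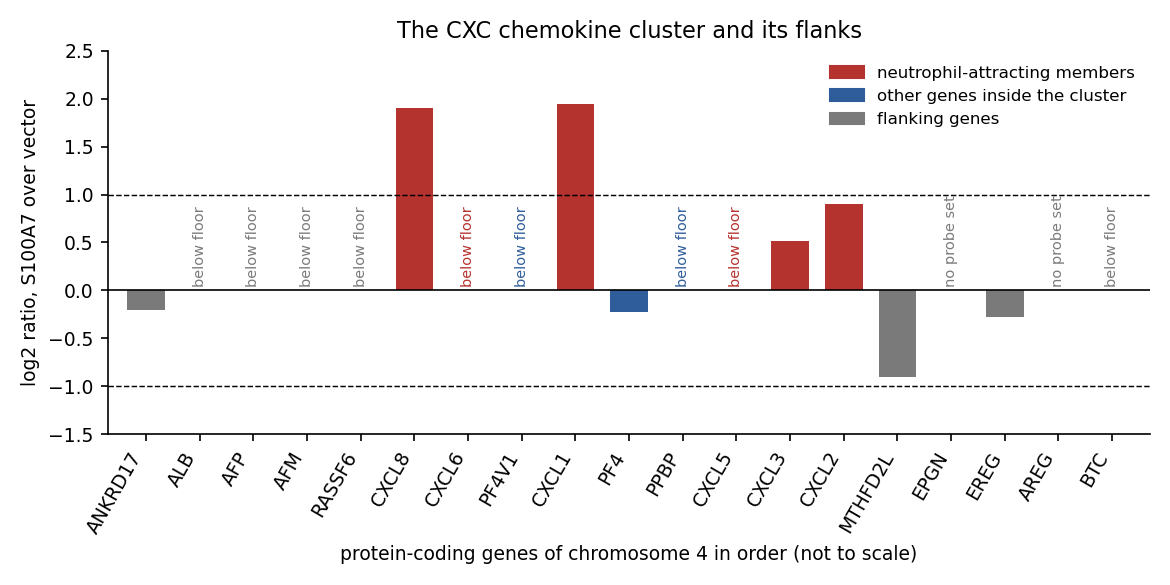
Log2 ratio of S100A7 over vector cells for the protein-coding genes of the chromosome 4 chemokine cluster and the 5 on either side, in annotated order and not to scale, with 2-fold as dashed lines and unmeasured genes marked in words. CXCL8 and CXCL1 exceed 2-fold, with genes below the floor between them, and each measured flanking gene has a ratio below 0 on its brightest probe set.

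Other chemokine genes were near or under the limit of measurement. Of 11 other CXC chemokines, 3 were measured and 0 were 2-fold apart, with a median log2 ratio of -0.22. CXCL12, the ligand of CXCR4, read 92.5 in S100A7 cells and 99.8 in vector cells. CXCL10, an interferon-induced attractant of T cells, read 64.1 in S100A7 cells, below the floor, and 81.5 in vector cells. Of 20 listed CC, CX3C and XC chemokines, 18 had probe sets and 3 were measured (CCL11, CCL28 and CX3CL1), 0 of them 2-fold apart, with a median of 0.04. All 3 had a reading below the floor, so these ratios are bounds. CCL11 read 76.8 in S100A7 cells and 32.1 in vector cells. With a floor at the 30th percentile CCL11 had a log2 ratio of 1.26, CCL28 -0.82 and CX3CL1 0.18. The monocyte attractant CCL2 and CCL20, an NF-kB target like CXCL8, were below the floor on both arrays.

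Receptors for the 6 chemokines were not measurable either. CXCR1 read 13.5 in S100A7 cells and 13.6 in vector cells, and CXCR2 read 20.3 in S100A7 cells and 3.50 in vector cells, all below the floor. The atypical receptor ACKR1, which binds and clears these chemokines, was below it too. Of the 10 receptors listed, the 3 measured (CXCR4, CXCR6 and ACKR2) reached the floor on 1 array each and were within 2-fold, with a median log2 ratio of 0.04.

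Signals known to induce these chemokines were mostly within 2-fold. Of 19 listed genes 16 were measured, with a median log2 ratio of 0.01 on the brightest probe sets. Of these 16, 1 was higher by 2-fold or more and 1 lower. Over all measured genes 1.8% were higher by that much and 2.25% lower. IL1A, encoding interleukin-1 alpha, read 963 in S100A7 cells and 223 in vector cells on probe set 210118_s_at, 4.32-fold higher, but its other probe set had a log2 ratio of -0.020. IL1RAP, the shared subunit of the interleukin-1 receptor, read 138 in S100A7 cells and 348 in vector cells, 2.51-fold lower. It was under 2-fold with a floor at the 70th percentile (log2 ratio -0.30, a bound) and as the median over its probe sets (-0.81). Its receptor partner IL1R1, named after its value was seen, read 147 in S100A7 cells and 230 in vector cells, 1.56-fold lower. Of the brightest others, IL1B had a log2 ratio of 0.10, the signalling kinase gene IRAK1 -0.68, the adaptor MYD88 -0.21 and the TNF receptor gene TNFRSF1A 0.90. IL17RC, named after its values were seen, had 0.24, but its 4 measured probe sets ran from -0.09 to 1.19. TNF and IL17A were below the floor on both arrays.

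Among 15 listed transcription factors and their inhibitors 14 were measured, 1 at least 2-fold higher and 0 lower, with a median log2 ratio of 0.30. The shares over all measured genes were 1.8% higher and 2.25% lower. CEBPD, a C/EBP family factor induced in inflammation, read 2053 in S100A7 cells and 803 in vector cells, 2.56-fold higher. Its only measured probe set ends in _s_at, so the probes may match more than 1 transcript. NFKBIA, the inhibitor that NF-kB itself induces, read 7329 in S100A7 cells and 4652 in vector cells, a log2 ratio of 0.66. The AP-1 and C/EBP factors that were bright on both arrays had ratios a little below 0, CEBPB at -0.35, FOSL1 at -0.26 and JUN at -0.19. The rest of the NF-kB genes on the list were named after their values were seen. Of the subunits NFKB2 had 0.85, RELA 0.60, RELB 0.01, REL -0.05 and NFKB1 -0.29. Among inhibitors and cofactors TNFAIP3 had 0.99, NFKBIZ 0.57 and NFKBIE 0.53. TNFAIP3 passed 2-fold under median centring, at 1.03, but had 0.72 as the median over its probe sets. On the other measured probe set NFKB2 had 0.45, RELA 0.31, TNFAIP3 0.46 and NFKBIZ 0.80.

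Chemokine messages are short-lived, and proteins that bind their AU-rich elements govern their decay. Of 11 listed regulators of this kind 9 were measured, with a median log2 ratio of -0.13. All 9 were within 2-fold on their brightest probe sets. Over all measured genes 1.8% were at least 2-fold higher and 2.25% lower, so most genes of any kind were within it. RC3H2, named after its values were seen, had -0.13, but its 7 measured probe sets ran from -1.39 to 0.26. The stabilising protein gene ELAVL1 (HuR) read 10586 in S100A7 cells and 10571 in vector cells, a log2 ratio of 0.00. Its 4 measured probe sets ran from -0.63 to 0.14. HNRNPD (AUF1) had -0.44 on its brightest probe set, but its 6 measured probe sets ran from -0.44 to 0.35, so it has no settled direction. KHSRP had 0.20 on its brightest probe set, but its 4 measured probe sets ran from -0.47 to 0.20. The kinase gene MAPKAPK2, which controls such proteins, had 0.11. ZFP36 (tristetraprolin), which promotes decay, had -0.47 and was named after its value was seen.

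Genes for proteins that cut or hold chemokines outside the cell included some of the larger differences. Of 14 listed genes 8 were measured, of which 2 were higher by 2-fold or more and 1 lower, with a median log2 ratio of -0.39. The shares over all measured genes were 1.8% higher and 2.25% lower. MMP9, a gelatinase that can trim CXCL8 to a more active form, read 453 in S100A7 cells and 136 in vector cells, 3.33-fold higher. Under a floor at the 70th percentile its log2 ratio was at least 0.68, and its only probe set ends in _s_at. MMP1, the interstitial collagenase, read 988 in S100A7 cells and 291 in vector cells, 3.40-fold higher. HPSE, which cuts the heparan sulfate chains that bind chemokines, read 347 in S100A7 cells and 909 in vector cells, 2.62-fold lower, and its probe set without the ending _s_at had a log2 ratio of -0.72. Carriers of those chains included SDC4 with a log2 ratio of 0.06, SDC1 with -0.72 and GPC1 with -0.92. The chondroitin sulfate proteoglycan gene VCAN had -0.61.

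Other factors that act on neutrophils or their adhesion were fewer. Of 13 listed genes 6 were measured, with a median log2 ratio of 0.21. Of these 6, 1 was at least 2-fold higher, against 1.8% of all measured genes. That gene, ICAM1, an adhesion molecule for leukocytes, read 1350 in S100A7 cells and 587 in vector cells, 2.30-fold higher. ICAM1 was not measured without probe sets ending in _x_at or _s_at. CSF3, which encodes the granulocyte growth factor G-CSF, read 612 in S100A7 cells and 445 in vector cells, and CSF1 had a log2 ratio of 0.73. ANXA1 had -0.33 and PTGES -0.44. S100A8, S100A9 and S100A12, abundant in neutrophils, were below the floor on both arrays.

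**Figure D5:**
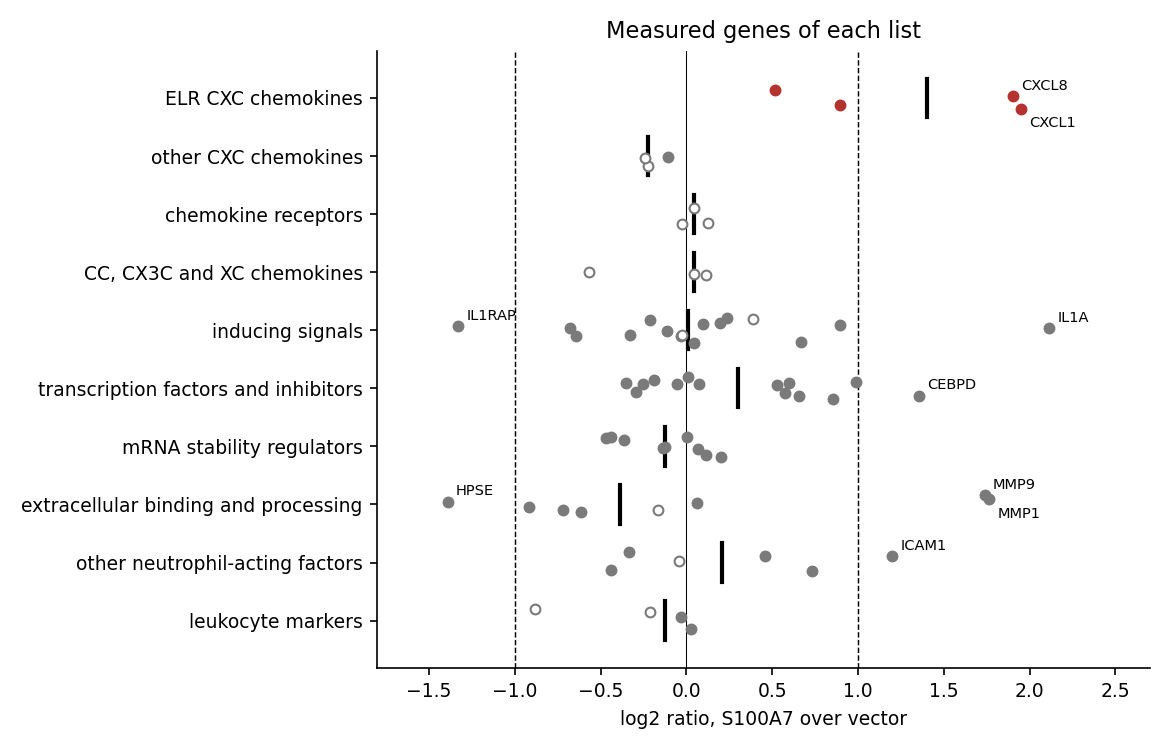
Log2 ratio of S100A7 over vector cells for every measured gene of 10 lists, the line markers left out (points, vertical jitter for legibility), with open points for ratios bounded by the floor, black bars for list medians and dashed lines for 2-fold. The neutrophil-attracting members have a median of 1.40, and the medians of the other lists run between -0.39 and 0.30. The floor limits how far open points can lie from 0. Most points of the receptors, the other CXC chemokines and the CC, CX3C and XC chemokines are open, so those medians are no like comparison.

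Leukocytes also make these chemokines, so their markers were examined. Of 12 markers listed 11 had probe sets, 7 genes were below the floor on both arrays and 0 of the 4 measured were 2-fold apart. ITGB2 and FCER1G were above the floor on both arrays. ITGB2 read 214 in S100A7 cells and 218 in vector cells, and FCER1G read 84.3 in S100A7 cells and 82.9 in vector cells. The ratios of CSF3R and ITGAM are bounds, since their readings in S100A7 cells, 29.2 and 48.4, lay below the floor. In vector cells they read 79.9 and 127. With a floor at the 30th percentile CSF3R had a log2 ratio of -1.45 and ITGAM -1.39, both more than 2-fold lower in S100A7 cells. Summed over the measured 4 (CSF3R, FCER1G, ITGAM and ITGB2), intensities came to 436 in S100A7 cells and 508 in vector cells with readings under the floor raised to it, and to 376 in S100A7 cells and 508 in vector cells as deposited. PTPRC, CD14, LYZ, FCGR3B, TYROBP, MPO and CD3E were those below the floor on both arrays.

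The genes most like CXCL8 and CXCL1 were found by the distance between log2 intensities on both arrays, over 11242 genes above the floor on each. Intensities of different probe sets do not compare transcript amounts, so likeness refers to the readings alone. Nearest to CXCL8 was RIPOR3, at a distance of 0.47 with a log2 ratio of 1.48, followed by the basement membrane collagen gene COL4A1 (distance 0.65, ratio 1.20) and by CXCL1 itself at 0.66. For CXCL1 the nearest were TBC1D12 (distance 0.39, ratio 1.55), RIPOR3 (0.45) and OSTM1 (0.53, ratio 1.21). Probe sets agreed for RIPOR3 (1.46 to 1.48) and TBC1D12 (1.55 to 1.57), and ranged from 0.41 to 1.47 for OSTM1. Both arrays carry 1 reading per probe set, so this likeness rests on 2 samples.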

How the data were processed

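Per the submitters' processing notes the authors made the deposited values with MAS5, as a linear intensity for each probe set. The version, scaling target and detection calls of MAS5 are not given in the sources used. The values were taken as deposited because the arrays shared a mean of 500.1 after trimming 2% at each end. Both value columns were used, leaving 0 unused.

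The platform's annotation assigned 41091 of 54675 probe sets to a single gene, and 41037 of these matched RefSeq symbols (GRCh38.p14) by Entrez identifier. The floor was the 50th percentile of an array's probe sets, controls left out. Readings under it were raised to it, so that a ratio with 1 side at the floor is a bound, and probe sets under it on both arrays were left out. Genes are given by the measured probe set with the highest mean log2 intensity. The counting was tested on simulated data, which checks the code and not how reliable calls from 1 array per group are.

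With 1 array per group no test was possible, so values were compared by size, at 2-fold. The number of arrays limits the precision. The members, the 12 gene lists and the comparisons were chosen with earlier results of these data known. Named genes were the members, S100A7, every listed gene at least 2-fold apart and the 4 brightest others of a list, the neighbours of the chromosome 4 cluster, and the 3 genes nearest to CXCL8 and to CXCL1 in intensity on both arrays. Any other gene was chosen after its values were seen.

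Motifs were searched over the 250 bases before each start in RefSeq's promoter windows, which were aligned globally with Biopython 1.88 (match 2, mismatch -1, gap opening -3, extension -1). Values were computed with Python 3.11.15 and pandas 2.3.3. Alternatives were median centring, quantile normalization, other floors, a pseudocount, other rules for probe sets and other fold thresholds.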

Additional observations from a re-analysis of the deposited data

How the results depend on the processing

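The log2 ratios of the 5 measured chemokine probe sets moved by less than 0.36, the pooled SD among probe sets of 1 gene, under median centring, quantile normalization and a pseudocount of 32. Other floors could not change them, since these probe sets lay above every floor used. The ratios ranged from 1.91 to 1.99 for CXCL1 and from 1.88 to 1.94 for the brighter CXCL8 probe set. Without probe sets ending in _x_at or _s_at, 1 of 2 chemokine probe sets and 1 of 2 genes passed 2-fold, because CXCL2 and CXCL8 had no other measured one. The median of the members was 0.71 with no floor and 0.67 with a pseudocount of 32, since CXCL5 and CXCL6 then entered with their readings below the floor. The count of all genes at least 2-fold apart, 514, among 12688 measured, changed with the floor and the filter that goes with it: it was 1658 of 16769 genes with a floor at the 30th percentile, 187 of 8976 at the 70th, 4298 of 19775 with no floor or filter and 1079 of 19775 with the pseudocount. It was 2305 at a 1.5-fold and 102 at a 3-fold threshold. Median centring, quantile normalization and the median over probe sets kept 2 chemokine genes at least 2-fold higher. Of other listed genes, recomputed under the same settings after the data had been seen, IL1A reversed to -0.020 without _x_at and _s_at probe sets, where 210118_s_at drops out, and HNRNPD, within 2-fold, had 0.35 there in place of -0.44. Apart from that of IL1A, 26 of the 539 values moved by more than 0.36. No paired analysis was possible because each group had 1 array. With 1 array per group, no array could be left out.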
